A study of Mus musculus with 12 samples.

Results

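The miR-379 to miR-410 cluster is a run of microRNA (miRNA) hairpins in the imprinted Dlk1-Dio3 region of mouse chromosome 12, and its mature arms were followed here in skin after ultraviolet B (UVB) irradiation. Members are every arm of 36 hairpins listed by name, a list drawn up with earlier results of these data known. This gave 71 of the 1519 mature arms in the deposited table, and all 36 hairpin names were found. Of these arms, 53 reached 1 CPM (counts per 1000000 reads assigned to miRNAs) in at least 3 libraries and were tested, with 18 below that level.

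All libraries came from whole skin of C57BL/6 mice, an inbred strain, aged 6-8 weeks. The controls were untreated (0 mJ/cm2), and the skin of the other groups received UVB from a phototherapy lamp at 90 mJ/cm2 (UVB_90), 180 mJ/cm2 (UVB_180) or 360 mJ/cm2 (UVB_360). Each of the 4 groups had 3 libraries of small RNA, 12 in all. The comparison asks which miRNAs differ between normal and acutely damaged skin at each dose. How long after irradiation the skin was taken is not stated in the labels. Nor do they state whether replicate libraries represent different mice, and the p-values therefore reflect the spread among these libraries alone, which may be technical.

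A miRNA hairpin is cut from a longer transcript and yields a 5p and a 3p arm, and the arm loaded into an Argonaute protein represses mRNAs that pair with its seed (bases 2 to 8). The plus-strand hairpins of this cluster are read from the maternal chromosome as parts of long noncoding transcripts, among them Mirg, and the cluster is found only in placental mammals. It is best known from brain, where miR-134 limits the growth of dendritic spines in rat hippocampal neurons, and it is also active in embryonic tissues and muscle. The primary transcripts of several members, miR-376b and miR-381 among them, undergo A-to-I editing in brain, and edited reads were not analysed here.

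On GRCm38.p6, the build of the RefSeq sequences used, the 34 hairpins with a listed position lie within chr12:109709060-109743795, a stretch of 34.7 kb, and miR-299b is the 1 hairpin on the minus strand. RefSeq gave a mature sequence for 67 of the 71 arms and 50 of the 53 tested. The sequences below are those of the arms on which the results turn, written 5′ to 3′ with the seed in capitals. The opening set holds the 3 abundant 5p arms that rose at 180 and 360 mJ/cm2.
miR-379-5p: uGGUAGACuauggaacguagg
miR-134-5p: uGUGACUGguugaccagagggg
miR-382-5p: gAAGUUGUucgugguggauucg

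The next set holds arms that rose at 90 mJ/cm2, miR-543-3p with the largest log2 change in the cluster, and miR-323-3p and miR-496a-3p, whose calls did not depend on any single library at that dose.
miR-543-3p: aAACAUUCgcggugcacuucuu
miR-323-3p: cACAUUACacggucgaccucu
miR-496a-3p: uGAGUAUUacauggccaaucuc

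Below are both arms of miR-376b, the 5p arm of which fell at every dose, and the 3p arms of miR-382 and miR-381. The first is the partner of miR-382-5p and the second is an abundant arm that varied widely between controls.
miR-376b-5p: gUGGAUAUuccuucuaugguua
miR-376b-3p: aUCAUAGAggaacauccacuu
miR-382-3p: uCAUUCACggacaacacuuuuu
miR-381-3p: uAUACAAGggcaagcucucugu

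Among tested arms with a sequence, 3 pairs share a seed. miR-379-3p and miR-411-3p share AUGUAAC and are only 2 edits apart, miR-379-5p (above) shares GGUAGAC with miR-1193-5p, and miR-299a-3p shares AUGUGGG with miR-299b-3p.
miR-379-3p: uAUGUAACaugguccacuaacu
miR-411-3p: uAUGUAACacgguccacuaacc
miR-1193-5p: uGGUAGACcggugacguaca
miR-299a-3p: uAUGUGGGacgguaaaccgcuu
miR-299b-3p: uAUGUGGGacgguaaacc

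The libraries held 3164422 to 8063815 miRNA reads, where 1 read equals 0.124 to 0.316 CPM. Since CPM is a share of the reads of a library, it moves with the few miRNAs that dominate the total. miR-21a-5p held 2.01% to 2.69% of a control library and 17.8% to 19.3% of a UVB_360 library, and the muscle miRNA miR-1a-3p took 7.79% to 21.4% over all libraries. Leaving both out of the totals raised the median log2 fold change of the 590 tested arms by 0.20 at 360 mJ/cm2 and by under 0.1 at the lower doses, and the share of calls that were up at 360 mJ/cm2 went from 50.6% to 65.2%. Marker miRNAs of cell types, none of them at 0 in any library, did not all move with dose. Epithelial sums lay below all controls in UVB_360 only, and leukocyte sums lay above all controls at every dose. Skeletal muscle sums lay below all controls in UVB_90 and UVB_180 only, and the fibroblast and neural sums overlapped the controls in every group. The 7 epithelial markers summed to 81219 to 94933 CPM in controls, 28121 to 88669 in UVB_90, 41085 to 95200 in UVB_180 and 11646 to 36482 in UVB_360, and the 5 leukocyte markers to 601 to 816, 958 to 2358, 889 to 1671 and 3370 to 4491 CPM. The 7 fibroblast and smooth muscle markers stayed between 74449 and 108988 CPM over all groups, the 4 skeletal muscle markers lay between 82046 and 228888, and the 5 neural markers between 106 and 380. The part of these shifts in the results below was not tested, and in bulk skin fewer cells of a type and less RNA per cell cannot be told apart.

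The cluster as a whole made up a larger share of the reads at the highest dose. Its 71 arms summed to 6200, 6896 and 7524 CPM in controls, to 7039, 6715 and 8786 in UVB_90, to 7770, 8718 and 8846 in UVB_180, and to 10250, 10183 and 8951 in UVB_360. The UVB_90 libraries overlapped the controls, whereas every UVB_180 and UVB_360 library lay above all controls. The mean of miR-379-5p went from 1565 CPM in controls to 4020 CPM in UVB_360. With miR-379-5p subtracted from the sum of each library, both UVB_180 and UVB_360 overlapped the controls. The means were 6874 ± 662, 7514 ± 1114, 8445 ± 588 and 9795 ± 731 CPM (SD, n = 3 each), which is 0.687%, 0.751%, 0.845% and 0.98% of the reads. On a log2 scale the sum at 360 mJ/cm2 was 0.51 above control, or 0.78 when miR-21a-5p and miR-1a-3p were removed from the totals.

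Few arms carried most of these reads. miR-379-5p, miR-381-3p, miR-541-5p, miR-411-5p and miR-300-3p together held 73.6% to 81.6% of the cluster's reads in each library. Ligation in library preparation favours some RNA ends, so such shares compare libraries better than arms. miR-379-5p alone went from 22.9% ± 3.11 of the cluster in controls to 29.3% ± 5.32, 33.3% ± 3.79 and 41.0% ± 1.67 with rising dose, while miR-381-3p went from 29.0% ± 10.1 to 19.2% ± 7.29, 17.9% ± 6.02 and 14.6% ± 3.89 (SD, n = 3 each). Arms from the 5p side made up 51.6% of the cluster in controls (44.9% to 58.5%), 60.5% in UVB_90 (52.7% to 66.2%), 65.0% in UVB_180 (58.6% to 70.1%) and 71.8% in UVB_360 (68.1% to 74.1%), so that UVB_90 overlapped the controls. Among the arms other than miR-379-5p, the 5p share was 37.4% in controls (31.6% to 44.3%), 44.5% in UVB_90 (38.2% to 48.9%), 47.8% in UVB_180 (41.3% to 52.5%) and 52.1% in UVB_360 (45.7% to 55.7%), where only UVB_360 was clear of the controls.

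**Figure D1:**
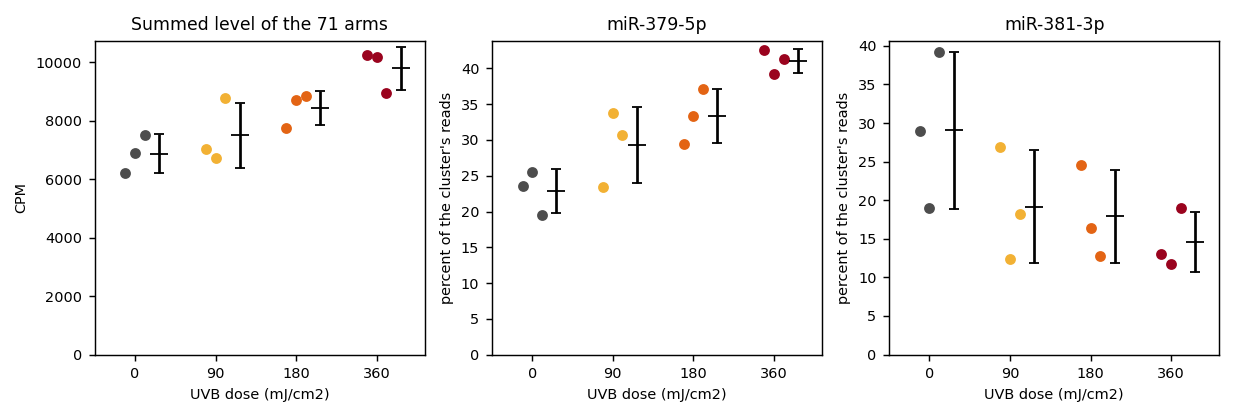
The left panel plots the summed CPM of the 71 cluster arms by UVB dose (mJ/cm2), and the others the percent of those reads held by miR-379-5p and miR-381-3p. Points are libraries, the horizontal marks and bars are the mean and SD of 3 libraries, and the sum goes from a mean of 6874 CPM in controls to 9795 CPM in UVB_360 as miR-379-5p goes from 22.9% to 41.0% of the cluster.

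The abundant 5p arms miR-379-5p, miR-134-5p and miR-382-5p rose at 180 and 360 mJ/cm2. miR-379-5p, the leading arm of the first hairpin in the cluster, measured 1465, 1764 and 1466 CPM in controls, 1649, 2271 and 2692 in UVB_90, 2293, 2912 and 3281 in UVB_180, and 4360, 3996 and 3702 in UVB_360. Every UVB_180 and UVB_360 library lay above all controls, and 1 UVB_90 library lay within their range. The log2 fold change was 0.47 ± 0.21 at 90 mJ/cm2 (SE; limma adjusted p = 0.12), 0.84 ± 0.21 at 180 mJ/cm2 (adjusted p = 0.00923) and 1.36 ± 0.21 at 360 mJ/cm2 (adjusted p = 0.00014).

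miR-134-5p, which in neurons targets Limk1 mRNA, measured 138, 166 and 114 CPM in controls and 158, 178 and 219 in UVB_90. It reached 209, 255 and 282 CPM in UVB_180 and 338, 360 and 336.9 in UVB_360, with no overlap between either of these groups and controls. Its log2 fold changes were close to those of miR-379-5p, at 0.41 ± 0.21 (limma adjusted p = 0.165), 0.84 ± 0.21 (0.00922) and 1.32 ± 0.21 (0.000164). miR-382-5p measured 67.0, 92.5 and 75.2 CPM in controls and 103, 105 and 162 in UVB_90. It reached 118, 152 and 143 CPM in UVB_180 and 219, 184 and 172 in UVB_360. All 9 irradiated libraries lay above all controls, although the change at 90 mJ/cm2 missed the threshold (0.63 ± 0.23, adjusted p = 0.0538, then 0.81 ± 0.23, adjusted p = 0.0153, and 1.29 ± 0.23, adjusted p = 0.000424). The calls at 360 mJ/cm2 held for all 3 arms when any library was left out. At 180 mJ/cm2 those of miR-379-5p and miR-134-5p also held, while that of miR-382-5p was lost without control replicate 1 or UVB_180 replicate 2 or 3.

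The other leading arms, miR-541-5p, miR-411-5p, miR-381-3p and miR-300-3p, did not pass at any dose. miR-541-5p measured 611, 881 and 715 CPM in controls and 856, 863 and 1140 in UVB_90. It measured 864, 1063 and 1017 CPM in UVB_180 and 1039, 1271 and 823 in UVB_360. The groups overlapped at 90, 180 and 360 mJ/cm2, and none of the log2 differences of 0.38, 0.43 and 0.50 passed (limma adjusted p = 0.222, 0.151 and 0.0797). miR-411-5p measured 566, 757 and 694 CPM in controls and 628, 700 and 863 in UVB_90. It measured 720, 1028 and 1120 CPM in UVB_180 and 1224, 1174 and 738 in UVB_360. Its ranges overlapped those of controls in each group, with the log2 difference at 360 mJ/cm2 just missing the threshold at 0.61 ± 0.24 (adjusted p = 0.055).

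miR-381-3p and miR-300-3p, which differ by 3 edits and could share reads, did not pass at any dose. miR-381-3p measured 1793, 1309 and 2953 CPM in controls, 1892, 833 and 1604 in UVB_90, 1905, 1431 and 1128 in UVB_180, and 1339, 1192 and 1702 in UVB_360. Control replicate 3 stood highest of all 12 libraries, and the groups overlapped throughout (log2 differences of -0.48, -0.39 and -0.45, each ± 0.33). miR-300-3p measured 278, 395 and 313 CPM in controls, 268, 276 and 333 in UVB_90, 290, 337.3 and 332 in UVB_180, and 338, 401 and 324 in UVB_360, with log2 differences of -0.16, -0.03 and 0.12, each ± 0.20.

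**Figure D2:**
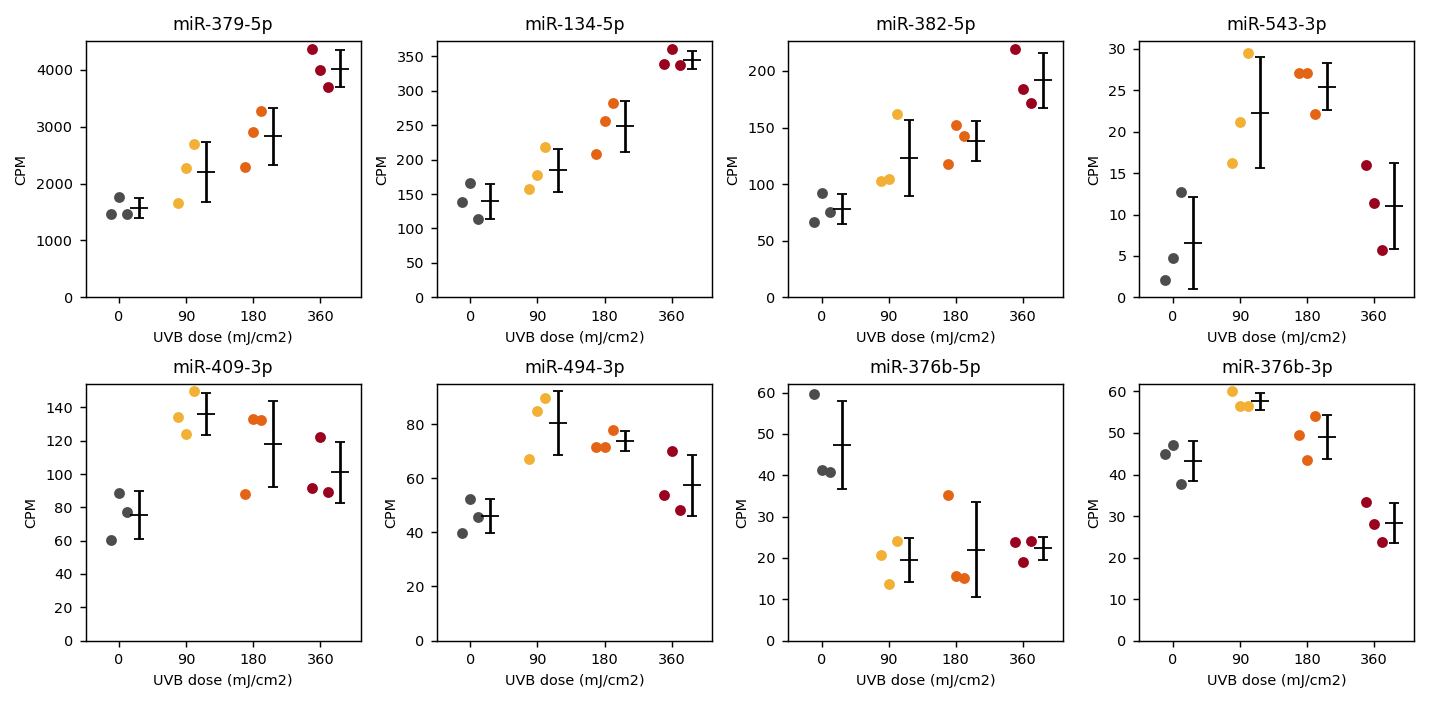
CPM of single cluster arms by UVB dose (mJ/cm2), with points for libraries and the mean and SD of 3 libraries beside them. In miR-379-5p, for example, all UVB_360 libraries (3702 to 4360 CPM) lie above all controls (1465 to 1764 CPM).

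At 90 mJ/cm2, 12 of the 53 tested cluster arms rose, 1 fell and 40 did not pass. Of all 590 tested arms, 25.6% were called at this dose (13.2% up and 12.4% down), so 24.53% of cluster arms called is near the background, while the calls lay almost wholly on the upper side. The median log2 fold change was 0.29 in the cluster and 0.04 over all tested arms, and the libraries of 16 cluster arms lay wholly above and of 2 wholly below controls, where 37.6% of all tested arms had no overlap (19.8% above and 17.8% below). The largest rise was that of miR-543-3p, from 2.11, 4.80 and 12.8 CPM in controls to 16.3, 21.1 and 29.6 in UVB_90, with all 3 irradiated libraries above all controls although control replicate 3 stood well above the other controls. Its log2 fold change was 1.85 ± 0.45 (limma adjusted p = 0.0106).

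miR-496a-3p went from 9.18, 12.2 and 5.84 CPM to 20.4, 21.5 and 20.5 (1.16 ± 0.31, adjusted p = 0.0151). miR-323-3p went from 9.05, 12.4 and 5.05 CPM to 18.03, 18.3 and 22.8 (1.14 ± 0.28, adjusted p = 0.0107). For both arms the groups were clear of each other, and these were the calls that held whichever library was left out. The other arms that rose were miR-380-3p, miR-409-5p, miR-379-3p, miR-1193-3p, miR-411-3p, miR-409-3p, miR-494-3p, miR-369-3p and miR-382-3p, by 0.69 to 1.04 on the log2 scale. miR-382-3p, the only one of them among the 10 most abundant arms, went from 118, 140 and 103 CPM to 189, 175 and 220 (0.69 ± 0.23, adjusted p = 0.0405). The count of 12 arms up became 2 without control replicate 1, 6 without UVB_90 replicate 2, 3 without UVB_90 replicate 3 and 5 when only the 2 groups were fitted, and the 11 calls lost without control replicate 1, miR-376b-5p included, then had adjusted p from 0.0566 to 0.178.

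At 180 mJ/cm2, 15 cluster arms rose, 2 fell and 36 did not pass, where 30.7% of all tested arms were called (16.6% up and 14.1% down). The cluster's 32.1% is again near the background, with a median log2 fold change of 0.41 against 0.06 over all tested arms. In 16 arms the UVB_180 libraries lay wholly above controls and in 5 wholly below (42.5% of all tested arms had no overlap, 24.2% above and 18.3% below). miR-543-3p again had the largest rise, to 27.1, 27.0 and 22.1 CPM (2.07 ± 0.45, limma adjusted p = 0.00468), and every UVB_180 library lay above every control.

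The pair with a shared seed, miR-379-3p and miR-411-3p, came next. miR-379-3p went from 19.8, 32.3 and 31.3 CPM in controls to 43.3, 63.3 and 77.9 (1.11 ± 0.28, limma adjusted p = 0.00922), and miR-411-3p from 20.1, 34.9 and 33.2 to 45.0, 58.3 and 75.5 (1.003 ± 0.27, adjusted p = 0.0131). In both arms all UVB_180 libraries lay above all controls, and since the arms are so alike in sequence they could share reads. Beside these and the 5p arms above, miR-496a-3p, miR-1193-3p, miR-409-5p, miR-758-3p, miR-323-3p, miR-380-3p, miR-485-3p, miR-494-3p and miR-495-3p rose by 0.68 to 0.97. miR-758-3p and the falling miR-539-5p are scarce, with means of 1.61 and 1.83 CPM over the 12 libraries. The count of 15 became 3 without control replicate 1, 9, 7 and 3 without UVB_180 replicates 1, 2 and 3, and 9 when only the 2 groups were fitted. Only miR-379-5p, miR-134-5p and miR-543-3p kept their calls in all 12 of these fits, and the 14 lost without control replicate 1 had adjusted p from 0.0509 to 0.218.

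At 360 mJ/cm2, 13 cluster arms rose, 4 fell and 36 did not pass, where 39.8% of all tested arms were called (20.2% up and 19.7% down). Calls in the cluster, at 32.1%, were thus no more frequent than elsewhere, and the median log2 fold change was 0.31 against 0.02. UVB_360 libraries lay wholly above controls in 20 arms and wholly below in 4, where 49.3% of all tested arms had no overlap (26.1% above and 23.2% below). Besides miR-379-5p, miR-134-5p and miR-382-5p, the rises were led by both arms of miR-380 and of miR-1193. miR-380-5p went from 11.4, 11.3 and 7.44 CPM in controls to 24.6, 22.6 and 23.1 in UVB_360, clear of the controls (1.17 ± 0.27, limma adjusted p = 0.0031). miR-1193-5p, which shares its seed with miR-379-5p, went from 0, 1.16 and 0.266 CPM to 1.72, 2.86 and 1.90 (1.16 ± 0.35, adjusted p = 0.0144), a few reads per library.

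miR-380-3p, miR-1193-3p, miR-496a-3p, miR-409-5p, miR-379-3p, miR-323-3p, miR-369-5p and miR-369-3p rose by 0.74 to 1.10. The calls of miR-379-5p, miR-134-5p, miR-382-5p, miR-380-5p, miR-323-3p and miR-409-5p held whichever library was left out. The count of 13 became 7 without control replicate 1 and 8 without UVB_360 replicate 2. The 10 calls lost without control replicate 1, all 4 falls among them, had adjusted p from 0.051 to 0.105. miR-543-3p, the largest change at the lower doses, measured 16.01, 11.4 and 5.69 CPM at this dose, overlapped the controls and did not pass (0.84 ± 0.45, adjusted p = 0.152).

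Arms that fell were few, and lay in or near the miR-376 hairpins or in the miR-299 pair. miR-376b-5p measured 59.6, 41.4 and 40.9 CPM in controls and 20.7, 13.6 and 24.02 in UVB_90. It measured 35.2, 15.7 and 15.02 CPM in UVB_180 and 23.9, 18.99 and 24.02 in UVB_360. All 9 irradiated libraries lay below all controls, and it fell by 1.26 ± 0.32, 1.16 ± 0.32 and 1.04 ± 0.32 on the log2 scale (limma adjusted p = 0.0119, 0.0144 and 0.0172), the only cluster arm to fall at every dose. The untested miR-376c-5p, with a mean of 0.467 CPM, has the same seed and nearly the same sequence as miR-376b-5p, so they could share reads. The partner arm miR-376b-3p measured 44.9, 47.2 and 37.7 CPM in controls, 59.997, 56.4 and 56.5 in UVB_90, 49.6, 43.4 and 54.1 in UVB_180, and 33.3, 28.1 and 23.7 in UVB_360. It stood above the controls at 90 mJ/cm2 without passing (0.41 ± 0.21, adjusted p = 0.166) and below them at 360 mJ/cm2, where it fell by 0.60 ± 0.21 (adjusted p = 0.0351).

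miR-539-5p fell at 180 mJ/cm2 by 0.94 ± 0.33 (limma adjusted p = 0.0439), from 3.47, 4.14 and 1.59 CPM in controls to 0.577, 1.47 and 1.19. Its UVB_180 libraries lay below all controls, at a few reads each. miR-299a-3p measured 202, 245 and 175 CPM in controls, 182, 161 and 166 in UVB_90, 146, 152 and 153.7 in UVB_180, and 137, 161 and 119 in UVB_360, where all libraries lay below all controls and it fell by 0.57 ± 0.20 (adjusted p = 0.0318). miR-299b-3p measured 200, 243 and 175 CPM in controls, 181, 160 and 164 in UVB_90, 143, 151 and 153 in UVB_180, and 137, 160 and 118 in UVB_360 (also a fall of 0.57 ± 0.20, adjusted p = 0.0318). Their reads differed by at most 16 in any library, and the 5p arms had equal reads in 10 of 12, so the miR-299a and miR-299b values are uncertain and count in effect as 1 measurement. All 4 falls at 360 mJ/cm2 missed the threshold when totals excluded miR-21a-5p and miR-1a-3p (adjusted p = 0.0655 to 0.23), with no change of sign, and no fall at any dose held through every omission of a library. The call of miR-376b-5p was lost without control replicate 1 or UVB_90 replicate 2 at 90 mJ/cm2, without control replicate 1 or UVB_180 replicate 2 or 3 at 180 mJ/cm2, and without control replicate 1 or UVB_360 replicate 2 at 360 mJ/cm2. Without control replicate 1 no cluster arm was called down at any dose, and without control replicate 3 the numbers down were 4, 7 and 7.

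**Figure D3:**
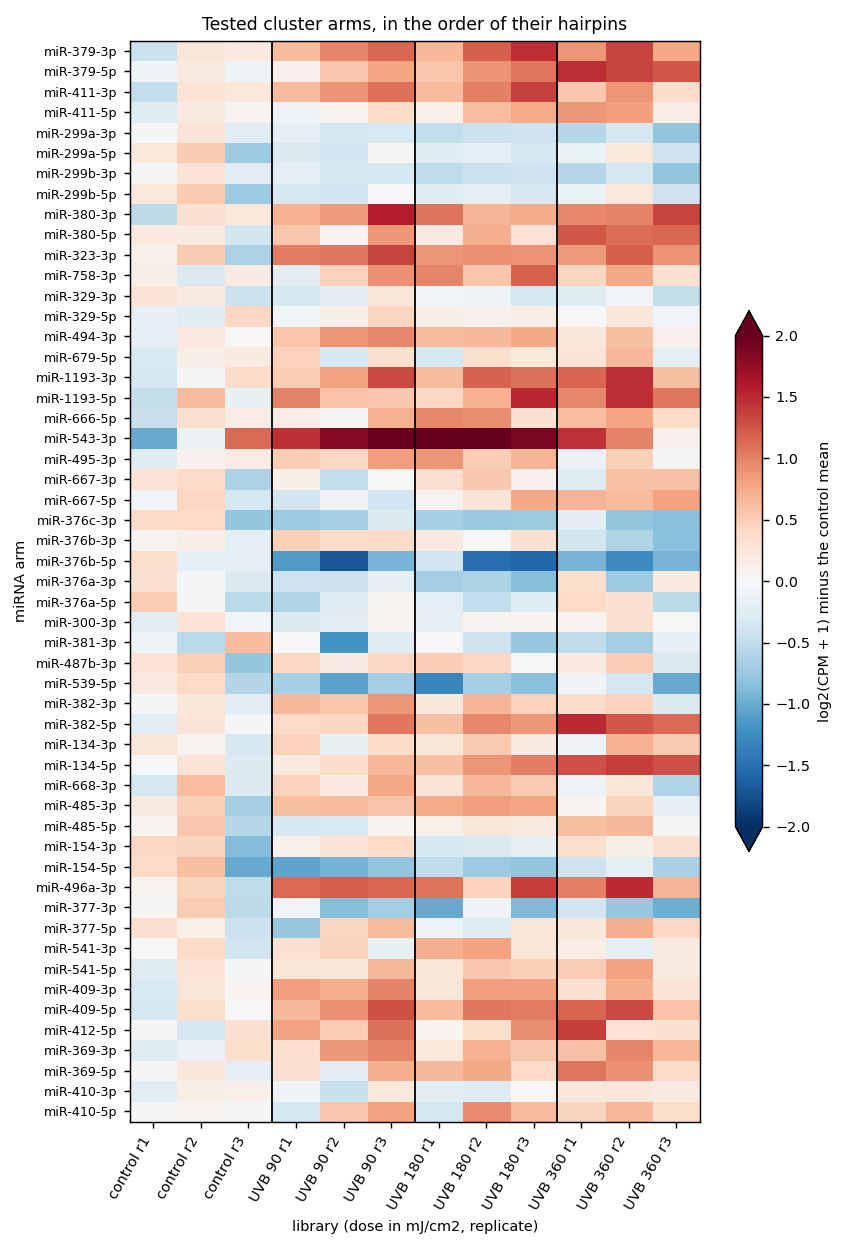
Difference of each tested cluster arm from its control mean, in log2(CPM + 1), with the 53 arms in rows in the order of the hairpins and the 12 libraries in columns. Colours are capped at both ends, and the irradiated columns of miR-379-5p and miR-134-5p are above the control mean while those of miR-376b-5p are below it.

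Over the 3 doses, 21 of the 53 tested arms rose at 1 dose or more, 5 fell at 1 or more and 27 were called at none. Of all 590 tested arms, 25.9% rose and 23.4% fell at 1 dose or more, in comparisons that share the same 3 controls. At all 3 doses, 8.47% of all tested arms rose and 7.8% fell, and in the cluster miR-376b-5p fell while miR-323-3p, miR-379-3p, miR-380-3p, miR-409-5p, miR-496a-3p and miR-1193-3p rose. Calls limited to 1 dose do not show that the doses differ, which the comparisons between irradiated groups address directly. Group means went up at every step of dose in 9 cluster arms (16.98%, against 12.9% of all tested arms), miR-379-5p, miR-134-5p and miR-382-5p among them, and went down at every step in 4 (7.55%, against 12.4%), which were miR-299a-3p, miR-299b-3p, miR-329-3p and miR-377-3p.

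Between 360 and 90 mJ/cm2, 3 cluster arms were higher and 1 was lower at the higher dose, where 11.2% of all tested arms were called (5.93% up and 5.25% down). miR-379-5p differed by 0.89 ± 0.21 (limma adjusted p = 0.017) and miR-134-5p by 0.91 ± 0.21 (adjusted p = 0.017). The scarce miR-667-5p measured 2.07, 2.80 and 2.05 CPM in UVB_90 and 5.42, 5.20 and 6.00 in UVB_360 (0.99 ± 0.28, adjusted p = 0.0353). miR-376b-3p fell by 1.01 ± 0.21 (adjusted p = 0.0124). In all 4 the groups did not overlap, as in 32.5% of all tested arms (17.1% higher and 15.4% lower), yet none of the calls held through every omission of a library, and all 4 were lost without UVB_90 replicate 1 (adjusted p = 0.0904 to 0.135), UVB_90 replicate 2 (0.0651 to 0.0771) or UVB_360 replicate 3 (0.0724 to 0.13). Without UVB_360 replicate 1 the 3 higher arms were lost (0.0566 to 0.102).

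Between 180 and 90 mJ/cm2 no cluster arm was called by limma, where 0.0% of all tested arms were, and 1 had an unadjusted p under 0.05. edgeR's quasi-likelihood test and DESeq2 on the recovered reads also called 0, with 1 and 0 at an unadjusted p under 0.05. Between 360 and 180 mJ/cm2 limma called 0 cluster arms, where 4.07% of all tested arms were called (1.69% up and 2.37% down), with 8 at an unadjusted p under 0.05; edgeR called 0 and DESeq2 called 3, each with 8 at an unadjusted p under 0.05. The nearest was miR-376b-3p (-0.78 ± 0.21, adjusted p = 0.051).

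Tested arms were also grouped in stretches along the chromosome, delimited after the values were known, so the contrast between them partly reflects that choice. From miR-379 to miR-667, the first 15 hairpins, 12 of 23 tested arms rose at 1 dose or more and 2, the miR-299 pair, fell, with median log2 fold changes of 0.39, 0.68 and 0.59 at the 3 doses. From miR-376c to miR-544, the next 9 hairpins, none of 9 tested arms rose and 3, both of miR-376b and miR-539-5p, fell, with medians of -0.34, -0.39 and -0.45. From miR-382 to miR-410, the last 12 hairpins, 9 of 21 tested arms rose and none fell, with medians of 0.38, 0.45 and 0.42. Each count is to be read beside the 25.9% of all tested arms that rose and 23.4% that fell at 1 dose or more. No test was made of this grouping. The middle stretch holds near-identical arms, namely the 3p arms of miR-376a and miR-376b, those of miR-300 and miR-381, and the 5p arms of miR-376b and miR-376c.

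**Figure D4:**
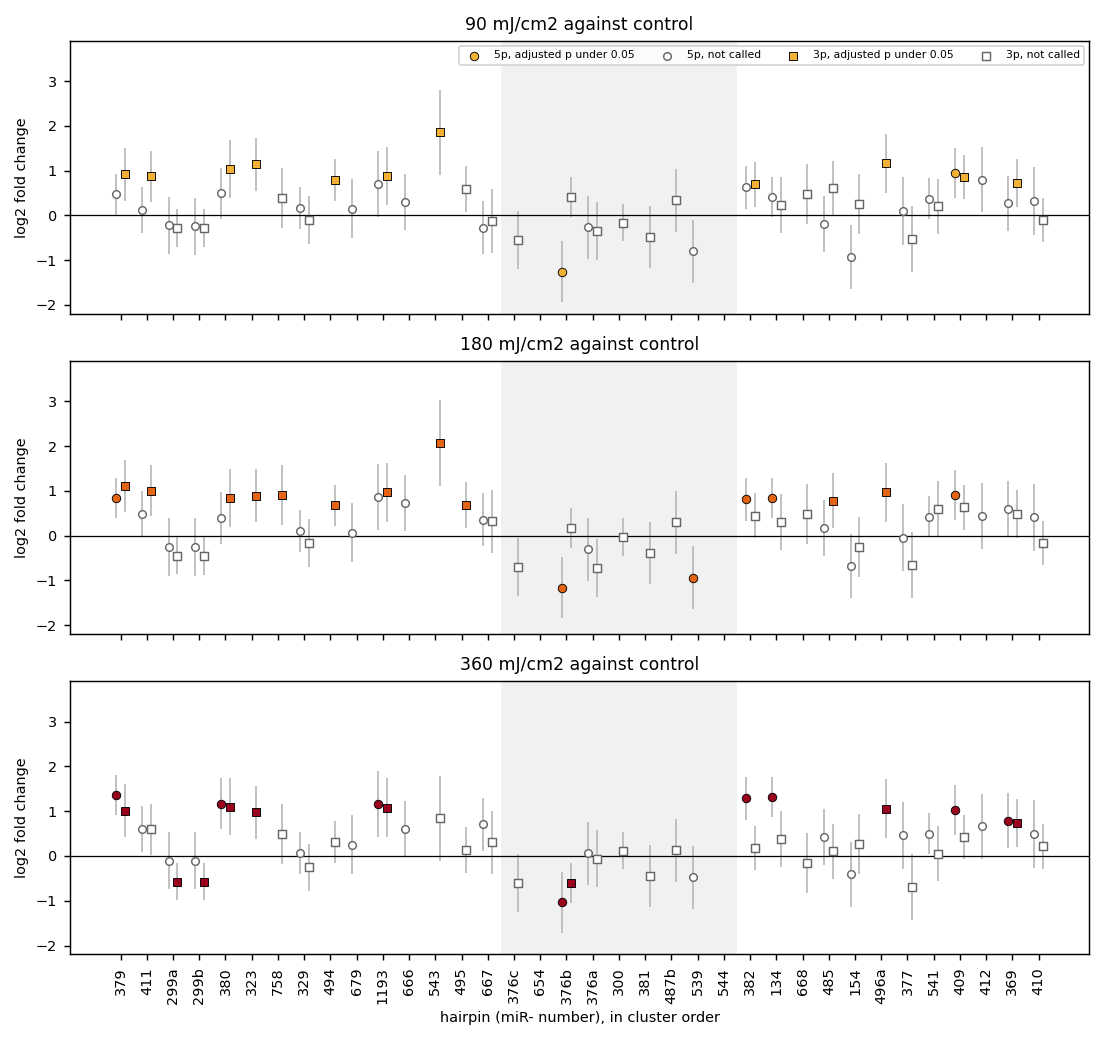
Log2 fold change against control for each tested cluster arm at each dose, with arms placed in the order of their hairpins along the chromosome, bars for the 95% interval and filled symbols for adjusted p under 0.05. Arms from miR-376c to miR-544 (shaded) have medians of -0.34, -0.39 and -0.45 at 90, 180 and 360 mJ/cm2, and those from miR-382 to miR-410 have medians of 0.38, 0.45 and 0.42. These stretches were delimited after the values were known, and the grouping was not tested.

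Because both arms of a hairpin come from the same precursor, the ratio of 3p to 5p within a hairpin was compared between groups, over 19 cluster hairpins with both arms tested and 166 such hairpins in all. At 90 mJ/cm2, 4 of the 19 moved towards 3p and none towards 5p, where 22.9% of all hairpins were called (14.5% towards 3p and 8.43% towards 5p), so the number called is near the background. In miR-376b the 3p share was 42.9%, 53.3% and 48.0% in controls and 74.4%, 80.6% and 70.2% in UVB_90 (log2 ratio 1.67 ± 0.33 higher, limma adjusted p = 0.00317). In miR-154 it was 20.4%, 18.7% and 20.0% in controls and 36.6%, 38.0% and 37.3% in UVB_90 (1.18 ± 0.28, adjusted p = 0.0073). Both hairpins were clear of the controls, and both calls held in every leave-one-out fit. miR-485 (0.79 ± 0.26, adjusted p = 0.0359) and miR-411 (0.76 ± 0.23, adjusted p = 0.0277) moved the same way, and both calls were lost when control replicate 1, control replicate 2, UVB_90 replicate 1 or UVB_90 replicate 2 was omitted, that of miR-411 also without UVB_90 replicate 3 and that of miR-485 without UVB_180 replicate 2 (adjusted p up to 0.129).

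At 180 mJ/cm2 miR-376b alone was called among the 19 cluster hairpins, towards 3p, where 20.5% of all were (10.2% in each direction). Its 3p share was 58.5%, 73.4% and 78.3% (1.34 ± 0.33, limma adjusted p = 0.00726, and 0.0678 without UVB_180 replicate 3), again above all controls. At 360 mJ/cm2, 2 of the 19, miR-382 and miR-134, moved towards 5p, where 25.3% of all hairpins were called (11.4% towards 3p and 13.9% towards 5p). At both doses the cluster's share was below the background. The 3p share of miR-382 was 63.8%, 60.3% and 57.9% in controls and 41.2%, 47.3% and 36.3% in UVB_360, with no overlap (fell by 1.11 ± 0.24 on the log2 scale, adjusted p = 0.0021, held in every leave-one-out fit). In miR-134 the 3p arm is scarce, at 0.418% of the hairpin in controls and 0.317% in UVB_360, and the shift of -0.94 ± 0.30 (adjusted p = 0.0248) was lost without control replicate 1 or UVB_360 replicate 1 (adjusted p up to 0.124), with a pseudocount of 0.5 or with only the 2 groups fitted (up to 0.115). The UVB_360 shares (0.145% to 0.431%) overlapped those of controls (0.233% to 0.623%), and without a pseudocount the log2 ratio of mean CPM shifted by -0.42, so the size of the fitted shift depends on the pseudocount. No cluster hairpin had 1 arm called up and the other called down in the same comparison.

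**Figure D5:**
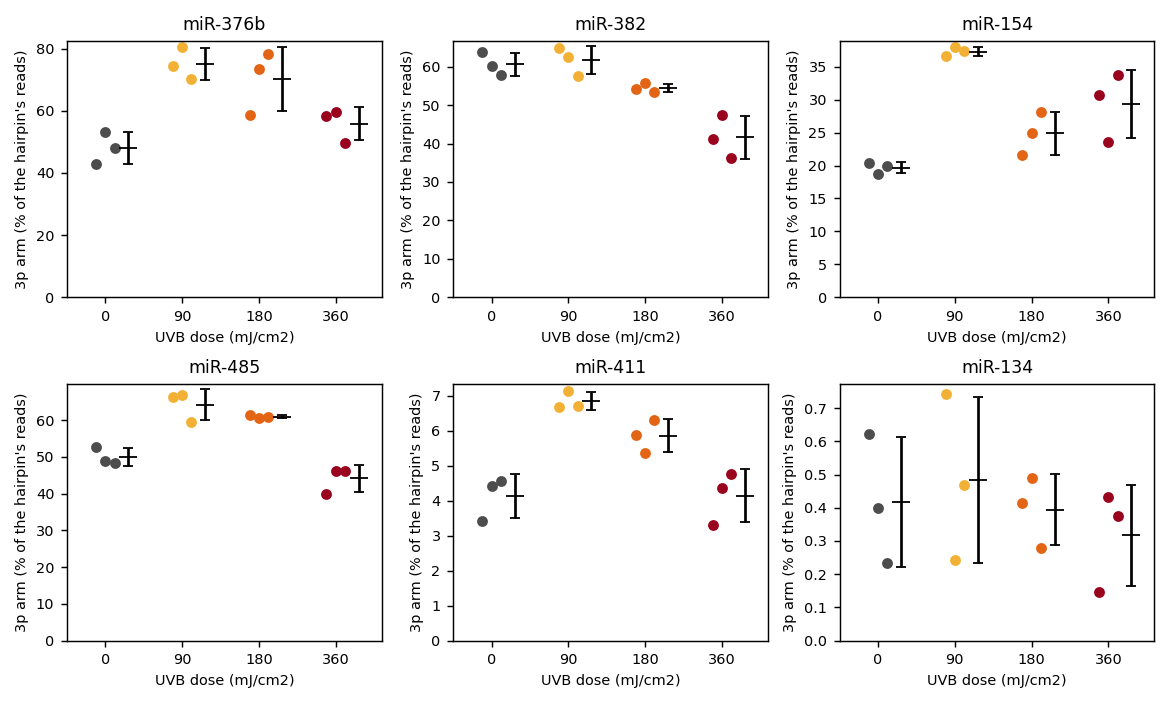
Percent of the reads of a hairpin that came from its 3p arm, by UVB dose (mJ/cm2), for the 6 cluster hairpins called at any dose. Points are libraries with the mean and SD of 3 beside them, and miR-376b goes from a mean of 48.1% in controls to 75.0% in UVB_90 while miR-382 goes from 60.6% to 41.6% in UVB_360.

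The 18 arms under the filter were all scarce, at no more than 1.74 CPM in any library. The most abundant were miR-300-5p and miR-376c-5p, the passengers of 3p-dominated hairpins, with means of 0.536 and 0.467 CPM over the 12 libraries. No direction was read from them. Other imprinted miRNAs of the Dlk1-Dio3 region, 27 arms from a list outside the cluster, 24 of them tested, gave 1 arm up and 5 down at 90 mJ/cm2, 6 and 4 at 180 mJ/cm2, and 7 and 2 at 360 mJ/cm2. At 90 mJ/cm2 this left 18 of the 24 uncalled, where 25.6% of all tested arms were called, and 41.7% and 37.5% of the 24 were called at 180 and 360 mJ/cm2, against 30.7% and 39.8%. Their summed level was 2908 ± 253 CPM in controls and 3201 ± 621, 3604 ± 213 and 3379 ± 240 CPM at the 3 doses. Controls ran from 2616 to 3063 CPM, and UVB_90, at 2754 to 3910, overlapped them. As in the cluster, all libraries of UVB_180 (3368 to 3781) and UVB_360 (3108 to 3562) lay above all controls. miR-434-5p, the most abundant arm on this list, rose at 180 mJ/cm2 (0.95 ± 0.26, limma adjusted p = 0.0136) and 360 mJ/cm2 (0.86 ± 0.26, adjusted p = 0.0151). miR-127-3p, which is antisense to the paternally expressed Rtl1, rose at 180 mJ/cm2 (0.91 ± 0.26, adjusted p = 0.0158) and did not pass at 360 mJ/cm2 (0.38 ± 0.26, adjusted p = 0.266). miR-434-3p did not pass at any dose, with log2 differences of 0.15, 0.29 and 0.25. Among those that fell, named after their values were seen, miR-540-5p fell by 1.11 ± 0.38, 1.79 ± 0.38 and 1.55 ± 0.38 at the 3 doses (limma adjusted p = 0.0456, 0.00458 and 0.00488) and miR-136-3p by 0.77 ± 0.24, 0.92 ± 0.24 and 0.89 ± 0.24 (adjusted p = 0.0297, 0.0107 and 0.00838). Partner arms, also named afterwards, did not all move alike. miR-127-5p fell at 90 and 180 mJ/cm2 by 0.79 ± 0.25 and 0.78 ± 0.25 (limma adjusted p = 0.0297 and 0.0262). miR-136-5p fell at 90 mJ/cm2 by 0.94 ± 0.29 and rose at 360 mJ/cm2 by 0.79 ± 0.29 (limma adjusted p = 0.0289 and 0.0413). miR-540-3p did not pass at any dose.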

How the data were processed

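Small RNA was sequenced from skin on an Illumina NextSeq after NEBNext library preparation, per the labels' protocols. The submitters' processing notes name the build mm9. No source used here names the aligner, counter, miRBase release or trimming. The authors deposited 1 table of CPM for 1519 arms, and 0 of its columns belong to other samples. In it 100% of values were whole multiples of 1 read (tolerance 0.01 reads), so reads were recovered.

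Groups came from the sample titles. The members, marker lists and tests were chosen with earlier results of these data known. limma-trend (limma 3.58.1, R 4.3.3) was run on log2(CPM + 1) of the 590 arms that reached 1 CPM in 3 or more libraries, in a single fit of 12 libraries with a mean per group. P-values are two-sided, adjusted by Benjamini-Hochberg within each comparison over all tested arms, with a threshold of 0.05. Fold changes on this scale understate those of scarce arms. Arm balance was fitted as log2(3p + 1) minus log2(5p + 1) over 166 hairpins. The fits were tested on simulated data. Alternatives were pseudocounts of 0.5 and 5, no filter, a 10 CPM filter, TMM factors, totals without miR-21a-5p and miR-1a-3p, edgeR 4.0.16 and DESeq2 1.42.0 on recovered reads, a fit of only the 2 groups, a replicate block and each library left out.

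Arms named are the 10 most abundant, up to 10 up and 10 down with the largest folds per dose (5 between doses), hairpins called in arm balance, the 2 most abundant untested arms and the 3 most abundant other Dlk1-Dio3 arms. Arms needed to complete a count, such as miR-369-3p, and members of the stretches and the steps of dose were named after their values were seen. Reads carry no molecular identifiers. Replicates of a dose differed far beyond sampling noise (chi-square over degrees of freedom from 130 to 630) and each counts as 1.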

Additional observations from a re-analysis of the deposited data

How the results depend on the processing

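With 3 libraries per dose, counts of calls moved with single libraries, so arms that pass or miss near the threshold are not separated reliably. Leaving out each library gave 2 to 12 arms up and 0 to 4 down at 90 mJ/cm2, 3 to 14 and 0 to 7 at 180 mJ/cm2, and 7 to 14 and 0 to 7 at 360 mJ/cm2 (4, 7 and 7 down without control replicate 3). It gave 0 to 3 up and 0 to 1 down between 360 and 90 mJ/cm2, 0 to 2 down between 360 and 180 mJ/cm2, and 2 to 6, 0 to 3 and 1 to 4 hairpins in arm balance at the 3 doses. Fitting only the 2 groups gave 5 up at 90 mJ/cm2, 9 up and 1 down at 180 mJ/cm2, 1 down at 360 mJ/cm2, 2 down between 360 and 180 mJ/cm2, and 2 and 1 hairpins at 90 and 360 mJ/cm2. Falls at 90 mJ/cm2 numbered 2 with no filter, the 10 CPM filter, TMM, DESeq2 or the replicate block and 3 with edgeR; those at 180 mJ/cm2 numbered 1 with the 10 CPM filter or without miR-21a-5p and miR-1a-3p in the totals, 4 with TMM, 7 with edgeR and 6 with DESeq2; those at 360 mJ/cm2 numbered 2 with no filter and 0 without the 2 miRNAs, where the summed level stood 0.78 above control. Between 360 and 90 mJ/cm2 DESeq2 gave 2 down, and between 360 and 180 mJ/cm2 DESeq2 gave 2 up and 1 down, with 1 down also under the 10 CPM filter and a pseudocount of 5. Arm balance gave 2 hairpins at 180 mJ/cm2 with a pseudocount of 5 and 1 at 360 mJ/cm2 with 0.5. Equal replicate numbers showed correlations from -0.22 to 0.24 and in no comparison did all pairs exceed 0.1, so they were not taken as pairs; the replicate block ended the calls of miR-495-3p at 180 mJ/cm2 and miR-369-5p at 360 mJ/cm2 (adjusted p = 0.0544 each). Changes of sign were limited to uncalled values: miR-300-3p at 180 mJ/cm2 became 0.075 without the 2 miRNAs and ran from -0.14 to 0.11 over the libraries left out, and miR-411-5p at 90 mJ/cm2 ran from -0.0099 (without UVB_90 replicate 3) to 0.22. Of the other named-arm fits, 1242 kept direction and side of the threshold, 155 lost and 23 gained a call; the cause of these moves was not tested.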

Other observations

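Within groups, single libraries often stood to one side, in the cluster and over all 590 tested arms. UVB_90 replicate 3 was the highest of its group in 73.6% of the 53 tested cluster arms and 38.8% of all tested arms, control replicate 2 in 69.8% and 45.8%, and UVB_360 replicate 2 in 62.3% and 49.0%. In UVB_90 replicate 3 the epithelial markers summed to 28121 CPM, against 81697 and 88669 in replicates 1 and 2, and the leukocyte markers to 2358, against 958 and 1031. UVB_180 replicate 1 also had a low epithelial sum for its group, 41085 CPM. That library was the lowest of its group in 54.7% of cluster arms and 43.9% of all tested arms. The part of these marker differences in the calls was not tested. UVB_360 replicate 3 was the lowest of its group in 69.8% and 47.6%. Control replicate 3 was the lowest in 52.8% and 47.3%, and 7 cluster arms there differed from the other controls by more than 1 on the log2 scale. Base composition overlapped between arms of different calls. The median GC content of the mature sequence was 45.5% in the 21 arms that rose at 1 dose or more (23.8% to 59.1%), 40.9% in the 5 that fell (36.4% to 50.0%) and 47.6% in the 24 uncalled arms with a sequence (36.4% to 68.2%).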
